A study of Mus musculus with 66 samples.

Results

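The squamous neo-epithelium that covers the injured rectal end of the mouse gut after dextran sulfate sodium (DSS) colitis was compared at day 20 and day 9, to ask how this tissue changes once it has formed. All 6 samples of dissected neo-epithelium from these days were taken, out of 66 bulk RNA samples in the series: mice 11, 12 and 13 at day 9 and mice 17, 18 and 19 at day 20. Neo-epithelium of mice 14, 15 and 16 at day 14 is given as values only. Every mouse was a wild-type C57Bl/6 animal bought at 6 weeks of age, and those killed at days 9, 14 and 20 had received 3% DSS, a polymer that damages the colonic lining, for 6 days from day 0. Uninjured rectum and anus, used for reference, came from 4 mice of the same kind killed at day 0 without DSS. The muscle layer was peeled off before RNA was made, and stranded mRNA was read as single ends of 75 bp. Different mice were killed at each day, so the comparison is between animals, with 3 per day. Where values are listed, they follow the order of the mice just given. They are in TPM, a transcript level adjusted for transcript length and scaled to the same total in each sample.

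When the columnar lining next to the anus is lost, the wound can be closed by squamous cells that move in from the anal side and stay as a stratified epithelium where a single layer of absorptive and mucus cells used to be. In such an epithelium dividing basal cells rest on the basement membrane and carry keratins 5 and 14, and their daughters move upward while switching to keratins 4 and 13 in moist mucosa or to keratins 1 and 10 in skin. Keratins 6, 16 and 17 are known from keratinocytes at healing wounds.

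The label was checked against 15 basal squamous markers. Their summed level was 12990.0 to 14658 TPM at day 9 and 7448 to 11970.3 TPM at day 20, against 458 to 963 TPM in rectum of the day-20 mice. Markers of colonocytes, the absorptive cells of the colon, were present as well. Their sum over 26 genes was 1529.6 to 3507 TPM at day 9, 16383 to 34163 TPM at day 20 and 52494 to 57539 TPM in day-20 rectum. The day-20 samples thus held both squamous and colonic transcripts. In bulk tissue, fewer cells of a type and less RNA per cell cannot be told apart. The values carry no read counts, so depth is unknown. Between 12691 and 13055 genes reached 1 TPM in the 6 samples. Mitochondrially encoded genes took 7.35% to 9.04% of TPM at day 9 and 10.1% to 17.2% at day 20.

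Of 13186 genes tested, 3459 (26.2%) differed between the days at a Benjamini-Hochberg adjusted p under 0.05 in limma, a linear model fitted on log2(TPM + 1). Changes below are on that scale, which understates the change of low genes. A gene that passed is called here and is said to have risen or fallen. At day 20, 1335 genes were higher (10.1% of those tested) and 2124 lower (16.1%). The values of the days did not overlap for 6117 genes (46.4%). The median change of all genes was -0.14. With TMM scaling factors it was 0.01, and 1838 genes were then higher and 1472 lower, so the balance of rises and falls depends on the scaling. The number of called genes was 2019, 1379, 1150 and 1687 without mice 11, 12, 13 and 17. Where several mice are named in this way, each was left out alone and the values follow their order. Counts of listed genes below are read against the shares of 10.1% and 16.1%.

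**Figure D1:**
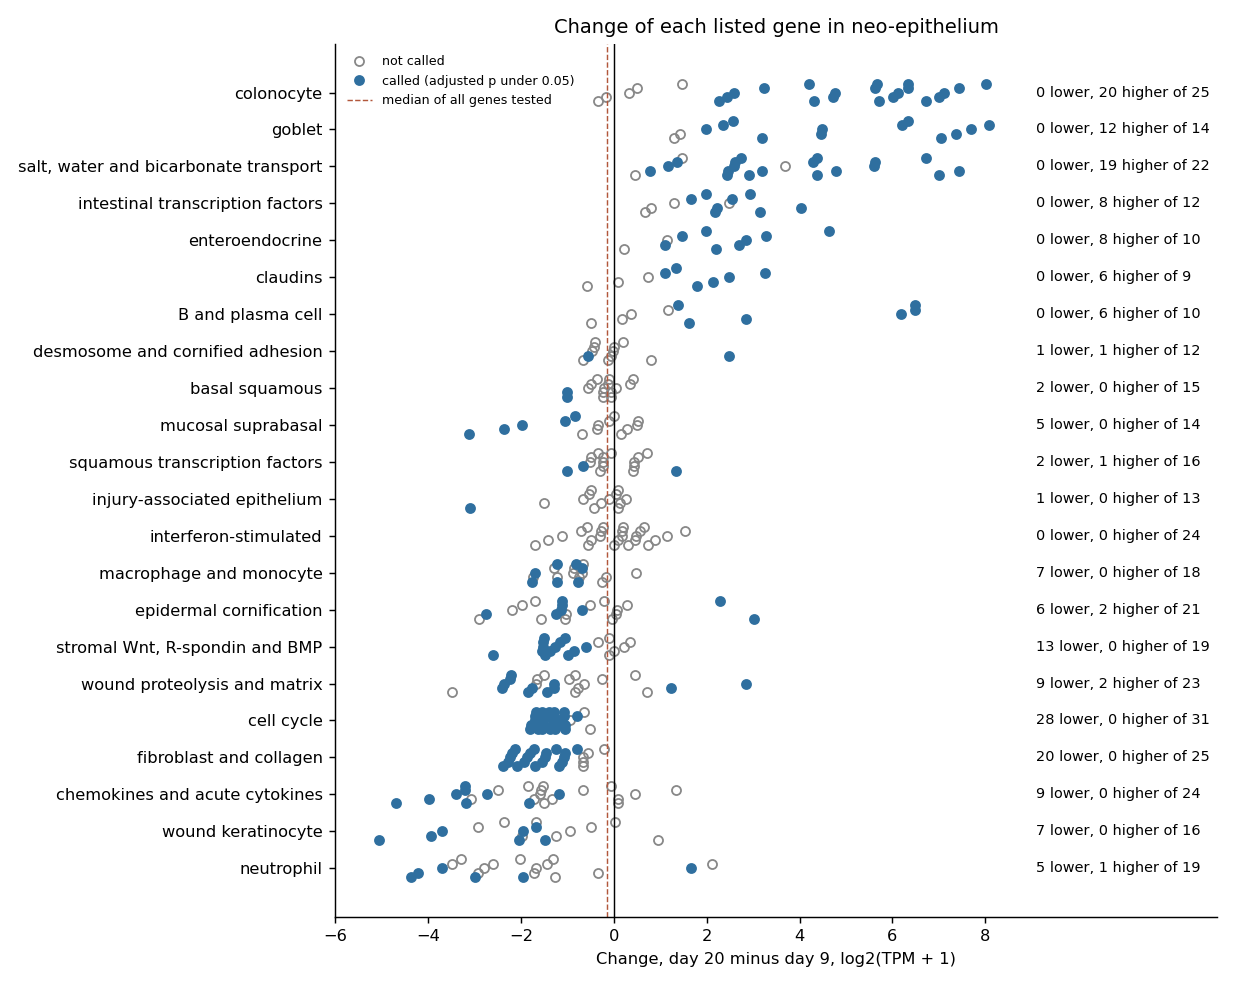
Change from day 9 to day 20 of every tested gene of 22 lists (x axis, log2(TPM + 1) difference, 1 point per gene, 3 mice per day). Filled points are called, and the dashed line is the median of all genes. Colonic lists lie to the right, cell cycle, collagen and wound lists to the left, and basal squamous genes around the median.

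Among basal squamous genes, 2 of 15 fell and none rose, with a median change of -0.20. Krt14, the basal keratin, stood at 9069.7, 9568 and 10925 TPM at day 9 and 5129, 7651 and 8819 TPM at day 20, with a log2 change of -0.48 (SE 0.22, adjusted p = 0.149). Krt5, its partner, stood at 2883, 2822 and 2963 TPM at day 9 and 1456, 2365 and 2183 TPM at day 20, with a log2 change of -0.56 (SE 0.20, adjusted p = 0.0808). For both keratins every day-20 value lay below every day-9 value, but neither passed the test. Trp63, the transcription factor of squamous basal cells, had overlapping values of 29.4, 35.7 and 29.4 TPM at day 9 and 27.1, 32.2 and 21.9 TPM at day 20 (adjusted p = 0.395). The members that fell were Cdh3, P-cadherin, and Pitx1, a transcription factor of hindlimb and oral epithelium, with changes of -1.02 and -1.01. Neither was called with TMM factors (adjusted p = 0.0562 and 0.0543). The call of Cdh3 was lost without mice 12, 13, 17 and 19 (adjusted p = 0.105, 0.0982, 0.0912 and 0.0685). The call of Pitx1 was lost without mice 11, 12, 13 and 17 (adjusted p = 0.0643, 0.0857, 0.0642 and 0.0779). Cdh3 was also not called without the filter on low values (adjusted p = 0.0671) or with all 9 neo-epithelium samples in the fit.

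Suprabasal genes of moist squamous mucosa did not move as a block. Of 14 tested, 5 fell, none rose and 9 were not called. Krt4 fell from 3590.0, 2715 and 3025 TPM at day 9 to 1015, 502 and 963 TPM at day 20, with a log2 change of -1.97 (SE 0.29, adjusted p = 0.0061). Its day-14 values were 416, 1096 and 403 TPM, of which those of mice 14 and 16 lay below the day-20 range and that of mouse 15 above it. Krt13, the keratin that pairs with keratin 4, stood at 9928, 8768 and 8907 TPM at day 9 and 8593, 7843 and 5324 TPM at day 20 and was not called (-0.37, adjusted p = 0.216). The 2 partner keratins thus differed in whether they passed, and the difference between them was not tested. Krt80, a keratin of differentiating epithelia, fell from 44.5, 45.2 and 49.8 TPM to 26.1, 20.0 and 20.2 TPM. Both Krt4 and Krt80 were separate between the days. Sprr3, a small proline-rich protein of esophageal-type mucosa, fell from 308, 852 and 885 TPM to 189.6, 16.3 and 106 TPM and was at 3.82, 56.0 and 2.78 TPM at day 14. Krt36, a hair-type keratin also found in tongue, fell from 29.8, 7.49 and 23.6 TPM to 1.65, 3.12 and 3.33 TPM. Tmprss11a, a membrane serine protease of squamous mucosa, fell by 0.83, whereas its relatives Tmprss11b, Tmprss11d and Tmprss11g had uncalled changes of 0.28, 0.50 and 0.53. The list had 3 falls without mouse 12 and 2 without mouse 13, and 3 when all 9 neo-epithelium samples were fitted together. The call of Sprr3 was lost without mice 11, 12, 13 and 19 (adjusted p = 0.0575, 0.125, 0.135 and 0.0733). The call of Krt36 was lost without mice 13 and 17 (adjusted p = 0.0697 and 0.0656). The call of Tmprss11a was lost without mice 12 and 13 (adjusted p = 0.0519 and 0.0614). Tmprss11a was not called with all 9 samples in the fit either. Sprr3 was not called with TMM factors either (adjusted p = 0.0555). It was also not called without the filter on low values, with all 9 samples in the fit, or with mitochondrial or rectum-high genes left out.

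**Figure D2:**
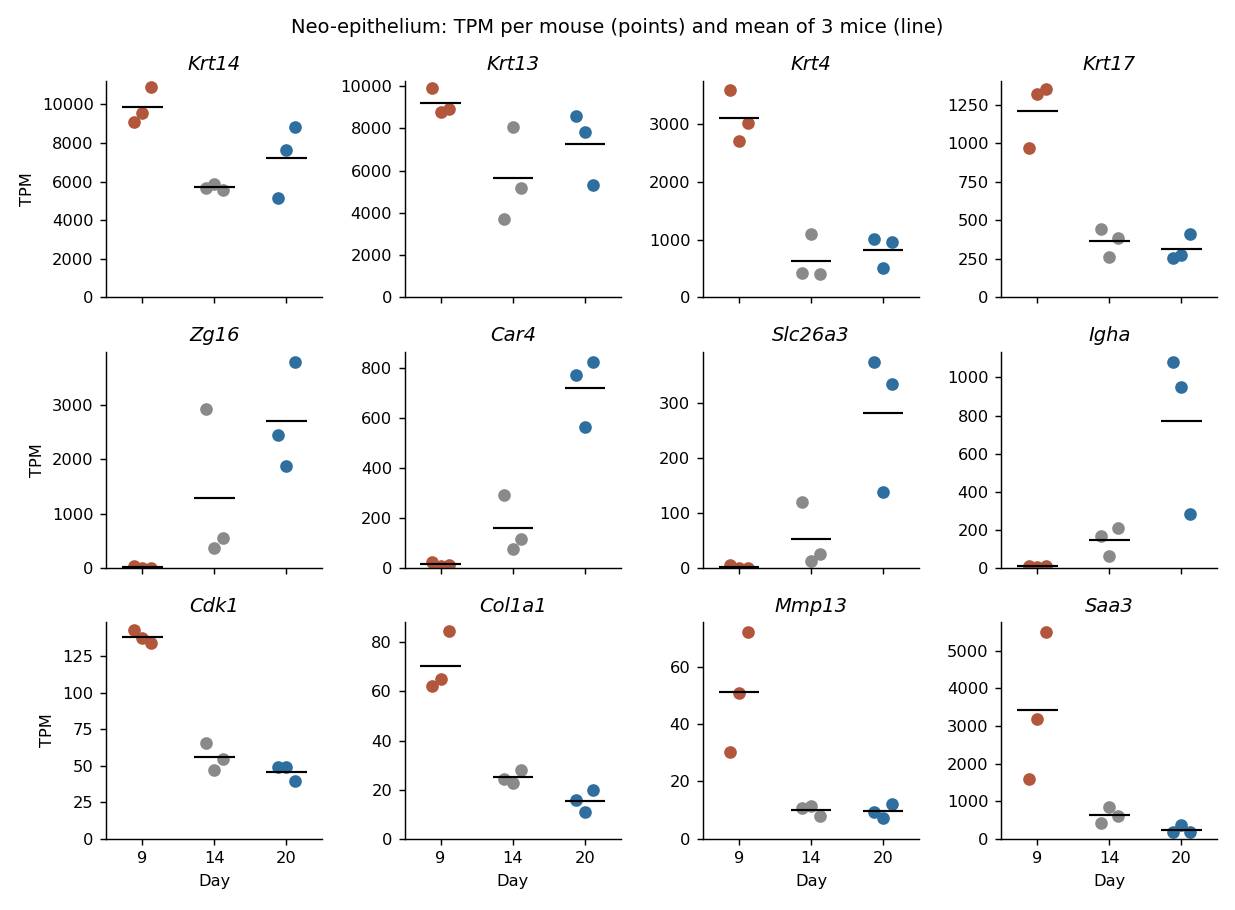
TPM (y axis, from 0) of 12 genes in neo-epithelium at days 9, 14 and 20 (x axis), with 1 point per mouse and a line at the mean of 3 mice. Zg16, Car4, Slc26a3 and Igha are low in all day-9 mice and high at day 20, and Krt4, Krt17, Cdk1, Col1a1, Mmp13 and Saa3 show the reverse.

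Wound-type keratinocyte genes fell in 7 of 16 cases, and none rose, with a median of -1.82. S100a8, Stfa1 and Stfa2, named among the largest falls below, are part of the 7, and S100a8 and S100a9 also stand in the neutrophil list. In day-9 rectum the wound list summed to 10541 to 12833 TPM, while basal squamous genes summed to 610 to 1226 TPM. The count and median are thus not particular to keratinocytes. The count of falls was 3, 4 and 4 without mice 13, 17 and 19. Krt17 was at 966, 1315 and 1348 TPM at day 9 and 254, 276 and 412 TPM at day 20, with a log2 change of -1.96 (SE 0.23, adjusted p = 0.00374). Krt16, another wound keratin, fell too, from 353, 482 and 509.6 TPM to 96.2, 169 and 244 TPM. All day-20 values of both genes lay below all day-9 values. Krt6a and Krt6b, near-identical copies whose reads may be split unreliably, were not called. Krt6a stood at 5806, 6495 and 6736 TPM at day 9 and 3339, 5527 and 4992 TPM at day 20, and Krt6b at 719.8, 1433 and 1046 TPM at day 9 and 1632, 2771 and 1727 TPM at day 20. Every day-20 value lay below every day-9 value for Krt6a and above it for Krt6b, which thus went against the list. With rectum-high genes left out, 1 member of the list rose and 6 fell. Sprr1a, a small proline-rich precursor of the cornified envelope, fell from 1604, 2276 and 1931 TPM to 851, 422 and 594 TPM (-1.68, adjusted p = 0.00824). The call of Krt16 was lost without mice 12 and 13 (adjusted p = 0.0774 and 0.0878). Krt16 was also not called without the filter on low values (adjusted p = 0.0502).

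Genes of skin-type cornification gave 6 falls and 2 rises among 21 tested. Asprv1, a protease that processes filaggrin, fell from 163, 119 and 182 TPM to 31.4, 13.6 and 24.1 TPM, with a log2 change of -2.75 (SE 0.32, adjusted p = 0.00373). Cnfn, a cornified-envelope protein, fell from 894, 996 and 708 TPM to 439, 349 and 306 TPM and was at 53.2, 254 and 22.4 TPM at day 14. That call was lost when all 9 neo-epithelium samples were fitted together. Tgm3, a transglutaminase that cross-links the envelope, went the other way, from 17.9, 10.8 and 15.0 TPM to 134, 74.7 and 189 TPM, with a log2 change of 3.03 (SE 0.36, adjusted p = 0.00374). Tgm3 is also expressed in uninjured rectum, at 529 to 636 TPM, against 72.6 to 216 TPM in uninjured anus. Casp14, a protease of cornifying cells, rose from 2.31, 2.99 and 3.03 TPM to 27.2, 7.46 and 25.4 TPM. Krtdap, a peptide of differentiating keratinocytes, fell from 494, 745 and 645 TPM to 326, 236 and 297 TPM. Every day-20 value of the 5 genes lay outside the day-9 range. Krt10, the skin keratin, varied from 27.3, 176 and 101 TPM at day 9 to 58.9, 26.8 and 34.0 TPM at day 20 with overlap (adjusted p = 0.281). Falls numbered 3 without mouse 12 and 2 without mouse 13. The call of Casp14 was lost without mice 12, 13 and 17 (adjusted p = 0.0516, 0.056 and 0.0548). The call of Krtdap was lost without mouse 13 (adjusted p = 0.0527).

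Desmosome genes were mostly not called, with 1 rise and 1 fall among 12. The fall was Dsc3, a desmocollin of squamous cells, by 0.56. With TMM factors no desmosome gene fell and 2 rose (Dsc3 adjusted p = 0.0604), and none fell with all 9 samples in the fit or with rectum-high genes left out. The rise was Dsg2, a desmoglein of simple epithelia, from 25.6, 11.5 and 13.4 TPM to 118, 54.5 and 129 TPM (2.49, adjusted p = 0.00882). Among 6 keratins of simple or transitional epithelium 2 rose. Krt20, a keratin of mature surface colonocytes, rose from 116, 24.0 and 58.6 TPM to 515, 534 and 535 TPM, with a log2 change of 3.24 (SE 0.51, adjusted p = 0.00743). The day-20 mice were nearly equal in Krt20, and all lay above day 9. Krt19 rose less, by 0.75. Krt8, the main keratin of columnar cells, stood at 488, 17.5 and 174 TPM at day 9 and 1805, 900.1 and 2296 TPM at day 20 and was not called (adjusted p = 0.0511), and Krt7, a keratin of the anorectal transition zone, stood at 1157, 1137 and 1360.4 TPM at day 9 and 1069, 1211 and 907 TPM at day 20, with overlap. Of 16 squamous transcription factors 13 were not called, 2 fell and 1 rose. The falls were Pitx1, given above, and Sox15, a factor of basal keratinocytes, by 0.65 (adjusted p = 0.0497). With TMM factors none fell and 2 rose. Klf4, a factor of differentiating squamous and colonic surface cells, rose from 42.8, 30.4 and 23.7 TPM to 85.6, 53.4 and 114 TPM, and was not called without the filter on low values (adjusted p = 0.0558). Enzymes of barrier lipids moved both ways, with 3 falls and 2 rises among 12, and with 0 of either without mouse 12 or 13. Cers3, a ceramide synthase of skin, fell from 17.6, 20.9 and 17.9 TPM to 10.1, 10.9 and 6.70 TPM, and Degs2, a ceramide hydroxylase of skin and gut, rose from 17.0, 3.75 and 7.73 TPM to 79.9, 28.6 and 119 TPM. The call of Dsc3 was lost without mice 11, 12, 13 and 17 (adjusted p = 0.0843, 0.068, 0.105 and 0.0616). The call of Sox15 was lost without mice 11, 12, 13, 17, 18 and 19 (adjusted p = 0.128, 0.0619, 0.133, 0.136, 0.0667 and 0.0757). The call of Krt19 was lost without mice 12 and 13 (adjusted p = 0.0674 and 0.0704). The call of Klf4 was lost without mice 12, 13, 17 and 19 (adjusted p = 0.0848, 0.0981, 0.0886 and 0.0623). The call of Cers3 was lost without mice 12 and 13 (adjusted p = 0.072 and 0.0677). The call of Degs2 was lost without mice 12, 13, 17 and 19 (adjusted p = 0.0653, 0.0747, 0.0777 and 0.0555).

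Transcripts of the colonic lining rose. Of 12 intestinal transcription factors 8 rose, of 25 colonocyte genes 20, of 14 goblet cell genes 12 and of 10 enteroendocrine genes 8, and none fell. The median changes were 2.20, 4.76, 4.47 and 2.10. Some genes stand in more than 1 list. The lists held 16, 27, 15 and 14 genes. Testing needed 1 TPM in 3 of the 6 samples. A gene near 0 at day 9 was thus tested only if it was high at day 20, and could only rise. Without the filter on low values 7 of 16, 17 of 26, 11 of 15 and 5 of 14 rose and none fell. Of all genes, 1077 of 20920 then rose. The colonocyte count was 10, 8 and 11 without mice 13, 17 and 19. That of the transcription factors was 5, 4 and 5 without mice 13, 17 and 19, and that of enteroendocrine genes was 5, 3, 0, 5 and 1 without mice 12, 13, 17, 18 and 19. Without a day-20 mouse, genes near 0 at day 9 can fail the filter and go untested. Aqp8 and Cyp2c55, for example, were not tested without mouse 17, 18 or 19. Counts without a day-20 mouse thus can mix lost calls with genes not tested.

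Hnf4a, a nuclear receptor that maintains intestinal enterocytes, was at 8.10, 0.401 and 2.05 TPM at day 9 and 69.0, 29.8 and 77.1 TPM at day 20, with a log2 change of 4.03 (SE 0.70, adjusted p = 0.0101). Nr1i2, the xenobiotic receptor PXR, rose from 1.19, 0 and 0.149 TPM to 13.9, 5.62 and 16.9 TPM. For both genes the days did not overlap. Cdx1, a homeobox factor of the gut, reached 22.4, 9.51 and 28.1 TPM at day 20 against 10.5, 0.0367 and 2.49 TPM, with overlap between the days, and was not called (adjusted p = 0.0755).

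Car4, a carbonic anhydrase of surface colonocytes, rose from 22.7, 8.15 and 12.6 TPM to 771, 566 and 825 TPM, with a log2 change of 5.63 (SE 0.35, adjusted p = 0.00122). Slc26a3, the chloride-bicarbonate exchanger of the colon, rose from 5.20, 0 and 0.291 TPM to 373, 137 and 334 TPM. Aqp8, a water channel, rose from 0.489, 0.0619 and 0.203 TPM to 165, 188 and 313 TPM. Mouse 11 had the highest day-9 value of all 3 genes, and mouse 18 the lowest day-20 value of Car4 and Slc26a3. Muc2, the gel-forming mucin of goblet cells, rose from 12.2, 0.154 and 2.84 TPM to 438, 144 and 488 TPM. Zg16, a goblet lectin that binds bacteria, rose from 36.2, 2.21 and 6.42 TPM to 2439, 1875 and 3779.5 TPM, with a log2 change of 8.07 (SE 0.84, adjusted p = 0.00307). Its day-14 values were 2912, 375 and 559.8 TPM, so mouse 14 was already within the day-20 range. Pyy, a hormone of colonic endocrine cells, rose from 23.0, 1.16 and 5.73 TPM to 228, 93.3 and 246 TPM. The call of Pyy was lost without mouse 17 (adjusted p = 0.0506). Car1, a carbonic anhydrase of colonocytes, rose from 89.4, 0.242 and 4.91 TPM at day 9 to 1457, 439 and 1222 TPM. The call of Car1 was lost without mice 13, 17 and 19 (adjusted p = 0.0715, 0.072 and 0.054).

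Of 22 genes for salt, water and bicarbonate transport 19 rose, with a median of 3.06 (11, 9 and 9 without mice 13, 17 and 19). Without the filter on low values 15 of 23 rose. Atp12a, the colonic proton-potassium pump, rose from 3.80, 0.627 and 0.988 TPM to 107, 115 and 145 TPM. Slc5a8, a carrier of short-chain fatty acids, rose from 1.19, 1.57 and 0.460 TPM to 65.9, 25.2 and 41.8 TPM, and Slc9a2, a sodium-proton exchanger, from 1.00, 0.0677 and 0.255 TPM to 31.4, 13.5 and 41.6 TPM. None of these overlapped between days. Claudins, the sealing or pore proteins of tight junctions, rose in 6 of 9 cases (3 without mouse 13). Cldn8, which tightens the distal colon, rose from 3.50, 0.802 and 1.10 TPM to 42.5, 12.3 and 25.0 TPM, and Cldn23 from 7.25, 5.15 and 4.77 TPM to 14.6, 17.2 and 15.6 TPM. Genes of mitochondrial fuel use changed less as a list, with 3 of 18 rising and 1 falling. With TMM factors 8 rose, and without mice 17 and 18 the rises numbered 1 and 6.

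The colonic share was also measured with genes chosen from uninjured tissue only. Of 400 genes at least 4-fold higher in rectum than in anus at day 0, 379 passed the filter and were tested. Of these, 330 rose (87.1%) and none fell in neo-epithelium, with a median of 2.69. They made up 24.7% of all genes that rose. Their share of TPM was 1.92%, 2.29% and 2.07% at day 9, 10.3%, 3.70% and 4.39% at day 14 and 10.3%, 7.92% and 11.2% at day 20. In uninjured rectum it was 18.5% to 19.2%. Of 1012 genes at least 4-fold higher in anus than in rectum, 650 were tested, and 196 of these fell (30.2%) and 17 rose. The share of TPM of all anus-high genes was 13.7%, 14.8% and 15.1% at day 9. At day 20 it was 10.4%, 15.0% and 8.73%, so mouse 18 was within the day-9 range. Skeletal muscle markers summed to 2131 to 23242 TPM in uninjured anus and 14.8 to 44.8 TPM in uninjured rectum. The anus-high genes are thus not a set of squamous genes alone. Of the genes of neither kind, 988 of 12157 rose (8.13%) and 1928 fell (15.9%). When the rectum-high genes were removed and TPM rescaled, an alternative chosen after the data were seen, 1180 genes were higher and 1510 lower. Columnar cells within the neo-epithelium and columnar cells taken along at its edge cannot be told apart in these samples.

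**Figure D3:**
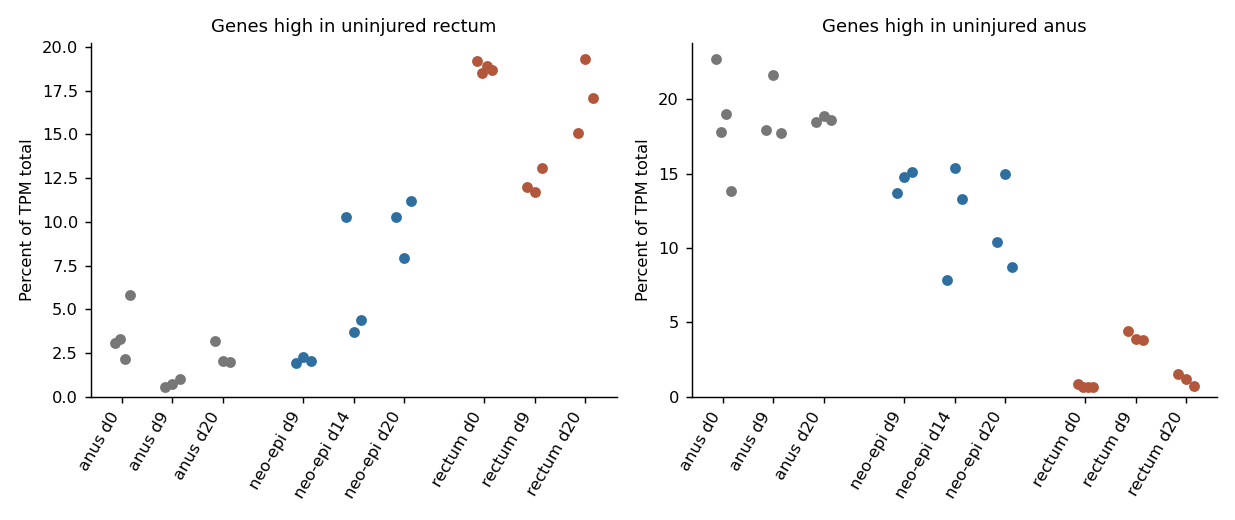
Percent of the TPM total (y axis) held by genes at least 4-fold higher in uninjured rectum than anus (left) and by the opposite set (right), with 1 point per mouse and groups by section and day on the x axis. The share of rectum-high genes in neo-epithelium is 1.92% to 2.29% at day 9 and 7.92% to 11.2% at day 20.

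Genes of cell division fell together. Of 31 tested, 28 fell and none rose, with a median of -1.38, and 23 to 28 fell when each mouse was left out in turn. The sum over the list was also lower in rectum of the same mice, at 1589 to 1731 TPM at day 9 and 351 to 837 TPM at day 20. In the anus it overlapped, at 372 to 885 TPM and 525 to 605 TPM. Of the 31 genes, 24 had a promoter window in RefSeq (GRCm38.p6), here the 250 bases before the annotated start. The CCAAT box, a common promoter element searched as CCAAT on both strands, occurred in 20 of the 24 (83.3%), against 33.8% of all 32851 windows. The CHR element, searched as TTTGAA on both strands, occurred in 8 (33.3%) against 16.0%, and the 8 windows with both compare with 5.55% of all. The same CCAAT search in fibroblast and collagen genes, which also fell, gave 4 of 16 windows (25.0%). A sequence of the factor HNF4, searched as AAAGTCCA on both strands in 26 windows of 22 colonocyte genes, gave 0 against 1.01% of all windows, with Aqp8 and Slc26a3 among the genes searched. With only 1.01% of all windows matching, 0 in 26 windows carries no information, and other forms of the HNF4 sequence were not searched. A match is a match of letters, not a shown binding site. Windows of 3 of the genes with both elements are printed to show how they are spaced, with the matches in capitals (chr10:69352913-69353162, minus strand, chr9:70421555-70421804, minus strand and chr11:99024190-99024439, minus strand).
Cdk1: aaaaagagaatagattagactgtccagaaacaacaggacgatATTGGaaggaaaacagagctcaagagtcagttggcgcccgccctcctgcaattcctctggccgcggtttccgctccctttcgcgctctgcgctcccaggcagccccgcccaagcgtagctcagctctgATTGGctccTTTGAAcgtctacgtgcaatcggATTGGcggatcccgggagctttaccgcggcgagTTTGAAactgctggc
Ccnb2: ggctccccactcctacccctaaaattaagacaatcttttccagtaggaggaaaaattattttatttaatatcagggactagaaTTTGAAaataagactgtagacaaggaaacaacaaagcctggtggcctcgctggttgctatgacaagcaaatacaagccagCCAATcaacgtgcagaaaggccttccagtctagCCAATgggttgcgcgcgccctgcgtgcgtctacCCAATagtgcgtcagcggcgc
Top2a: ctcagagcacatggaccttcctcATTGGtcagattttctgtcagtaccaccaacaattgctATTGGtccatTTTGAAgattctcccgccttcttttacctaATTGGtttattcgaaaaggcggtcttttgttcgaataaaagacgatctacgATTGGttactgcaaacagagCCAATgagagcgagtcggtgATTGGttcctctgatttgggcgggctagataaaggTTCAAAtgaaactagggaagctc

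These 3 genes fell with the rest of the list. Cdk1, the kinase that drives entry into mitosis, was at 143, 138 and 134 TPM at day 9 and 48.9, 49.4 and 39.4 TPM at day 20, with a log2 change of -1.58 (SE 0.14, adjusted p = 0.00213). Ccnb2, a cyclin that activates it, fell from 55.8, 47.9 and 45.9 TPM to 25.6, 20.5 and 24.9 TPM, and Top2a, the topoisomerase that untangles replicated DNA, from 112, 132 and 117 TPM to 46.8, 53.8 and 27.8 TPM. No day-20 value of the 3 genes reached the lowest day-9 value. Genes of DNA replication moved with those of mitosis. Mcm3, a subunit of the replicative helicase, fell from 35.4, 34.2 and 32.2 TPM to 11.4, 10.6 and 13.6 TPM. Ccnd1, cyclin D1 of the G1 phase, fell from 74.4, 65.1 and 70.2 TPM to 16.8, 15.8 and 33.8 TPM. Mki67, Cenpf and Nusap1 were the members not called, with changes of -0.50, -0.94 and -0.65.

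Growth factors of the EGF family differed by member. Of 10 tested, 4 fell and 2 rose. Ereg, epiregulin, fell from 19.4, 29.4 and 42.8 TPM to 6.63, 5.77 and 9.93 TPM. Nrg1, a ligand of the ERBB3 receptor, fell from 13.3, 11.5 and 18.8 TPM to 3.13, 2.46 and 4.80 TPM, with a log2 change of -1.81 (SE 0.27, adjusted p = 0.00616). The receptor gene Erbb3 rose, from 13.9, 13.0 and 9.53 TPM to 40.0, 25.2 and 41.9 TPM (1.46, adjusted p = 0.00891). Neither gene overlapped between days. Egfr, the EGF receptor, stood at 15.7, 9.73 and 12.1 TPM at day 9 and 14.2, 13.0 and 24.3 TPM at day 20 and was not called. Epgn, epigen, fell by 2.00. Without mouse 12 or 13, 2 members fell instead of 4, and 1 rose without mouse 11, 12, 13, 17 or 19 or without the filter on low values.

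Proteases and matrix genes of wounds fell in 9 of 23 cases and rose in 2, with a median of -1.29. Mmp13, a collagenase, was at 30.4, 50.8 and 72.2 TPM at day 9 and 9.41, 7.34 and 12.0 TPM at day 20, with a log2 change of -2.24 (SE 0.33, adjusted p = 0.00625). Timp1, a protease inhibitor, fell from 94.9, 140.3 and 226 TPM to 23.4, 28.2 and 31.2 TPM, and Plau, the urokinase activator of plasminogen, from 26.0, 37.5 and 57.5 TPM to 6.25, 9.38 and 6.98 TPM. Itga5, the fibronectin receptor subunit, fell from 27.8, 11.1 and 22.5 TPM to 1.94, 2.74 and 3.91 TPM. Itgb6, an epithelial integrin that activates TGF-beta, rose instead, from 9.29, 6.92 and 9.06 TPM to 20.1, 21.8 and 21.4 TPM. The days were separate for each of these 5 genes. The other rise, Mmp7, was 2.85. The call of Mmp7 was lost without mice 11, 12, 13 and 17 (adjusted p = 0.0546, 0.0511, 0.0783 and 0.0518).

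Transcripts of connective tissue fell in 20 of 25 cases, with a median of -1.48 (12 and 10 without mice 12 and 13). Col1a1, a chain of type I collagen, was at 62.1, 64.9 and 84.4 TPM at day 9 and 15.9, 11.1 and 19.7 TPM at day 20, with a log2 change of -2.13 (SE 0.24, adjusted p = 0.00345). Col3a1, type III collagen, fell from 807, 1035 and 1245 TPM to 212, 117 and 293 TPM, and Loxl2, which cross-links collagen, from 29.7, 33.7 and 45.7 TPM to 6.59, 4.27 and 10.0 TPM. Postn, a matrix protein of activated fibroblasts, overlapped at 212, 163 and 178 TPM at day 9 and 167, 57.1 and 162 TPM at day 20 and was not called. The sum over the list was 3379 to 4518 TPM at day 9 and 822 to 1764 TPM at day 20. Of 19 Wnt, R-spondin and BMP ligands and inhibitors 13 fell and none rose, with a median of -1.05. Falls numbered 5 and 6 without mice 12 and 13, and 1 gene rose without mouse 18. Wnt5a fell from 13.3, 18.2 and 18.7 TPM to 6.71, 7.71 and 6.29 TPM, and Bmp7 from 6.54, 8.71 and 9.37 TPM to 1.75, 1.93 and 2.99 TPM. Grem1, which blocks BMP ligands, fell from 37.3, 49.8 and 55.4 TPM to 17.5, 10.8 and 19.9 TPM. Ligand and inhibitor thus fell in the same samples.

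Chemokines and acute cytokines fell in 9 of 24 cases and none rose, with a median of -1.65 (3, 4, 2 and 3 without mice 12, 13, 17 and 19, and 4 without the filter on low values). The sum over the list did not fall, at 4558 to 10300 TPM at day 9 and 4406 to 12898 TPM at day 20, highest in mouse 18. Ccl2, which draws monocytes, was at 27.3, 54.1 and 76.1 TPM at day 9 and 1.60, 6.17 and 7.15 TPM at day 20, with a log2 change of -3.21 (SE 0.53, adjusted p = 0.00891), and Ccl7 fell from 30.6, 43.3 and 49.0 TPM to 2.90, 8.52 and 5.44 TPM. Cxcl1, which draws neutrophils, fell from 13.8, 37.5 and 72.9 TPM to 1.63, 5.56 and 2.09 TPM. The call of Cxcl1 was lost without mice 12 and 17 (adjusted p = 0.0513 and 0.055). Il1b stood at 345, 241 and 1655 TPM at day 9 and 45.5, 602 and 107 TPM at day 20, overlapped and was not called. Sites of the factor NF-kappaB, searched as GGG, any 2 bases and TTTCC on both strands, occurred in 6 of 25 windows of these genes (24.0%), against 1.41% of all, and the 6 genes were Ccl20, Cxcl1, Cxcl2, Cxcl3, Il1rn and Il6. Of these 6, Cxcl1 and Il6, an inflammatory cytokine, were called. The call of Il6 was lost without mice 17 and 19 (adjusted p = 0.0674 and 0.0515). The window of Cxcl1 is printed with its matches in capitals (chr5:90890995-90891244, plus strand).
Cxcl1: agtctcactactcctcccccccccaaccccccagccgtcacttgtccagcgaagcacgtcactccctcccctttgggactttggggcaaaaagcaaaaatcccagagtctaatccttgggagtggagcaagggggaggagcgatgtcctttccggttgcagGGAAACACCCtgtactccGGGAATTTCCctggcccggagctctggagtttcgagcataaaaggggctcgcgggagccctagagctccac

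Neutrophil genes varied with mouse 18. Of 19 tested, 5 fell and 1 rose, and 16 fell without mouse 18, while 1, 3, 1, 1 and 1 fell without mice 11, 12, 13, 17 and 19. The summed level was 9225 to 22117 TPM at day 9 and 3322 to 13068 TPM at day 20. S100a9, a calcium-binding protein of neutrophils and stressed keratinocytes, was at 7704, 3329 and 8481 TPM at day 9 and 258, 3365 and 558 TPM at day 20 and was not called (adjusted p = 0.056). Cxcr2, the receptor for CXCL1, was at 59.9, 20.8 and 48.1 TPM at day 9 and 6.92, 60.5 and 8.48 TPM at day 20, with mouse 18 at the top of all 6 samples. Ngp, a granule protein, fell in all day-20 mice, from 123, 24.4 and 37.0 TPM to 0.547, 3.54 and 0.977 TPM (-4.36, adjusted p = 0.00657). Ltf, lactoferrin, which neutrophils and glandular epithelium make, rose from 742, 1369 and 1148 TPM to 3219, 6269 and 1873 TPM. Ly6g, a surface marker of neutrophils, went against the list at 243, 19.9 and 67.5 TPM at day 9 and 316, 255 and 345 TPM at day 20, uncalled. The call of Ltf was lost without mice 11, 12, 13 and 17 (adjusted p = 0.103, 0.0705, 0.0987 and 0.0989). Ltf was also not called without the filter (adjusted p = 0.0783) or with all 9 samples in the fit. With all 9 samples in the fit 8 members fell, and 2 fell without the filter on low values.

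Among interferon-stimulated genes none of 24 was called by limma, and 1 had an unadjusted p under 0.05. The summed level was 179.7 to 1595 TPM at day 9 and 313 to 2693 TPM at day 20, so the days overlapped widely. Isg15, for example, was at 3.57, 68.5 and 102 TPM at day 9 and 11.0, 151 and 8.85 TPM at day 20, low in mouse 11 and high in mouse 18. Macrophage genes fell in 7 of 18 cases (4, 2, 1 and 2 without mice 11, 12, 13 and 17), and 11 were not called. Their summed level overlapped, at 2540 to 4194 TPM at day 9 and 2160 to 5427 TPM at day 20, highest in mouse 18. Among those that fell was Lyz2, lysozyme, from 598, 837 and 1018 TPM to 293, 327 and 416 TPM. The call of Lyz2 was lost without mice 12 and 13 (adjusted p = 0.0534 and 0.0529). Of 8 MHC class II genes 1 rose, H2-Oa, by 1.12. The call of H2-Oa was lost without mice 11, 12, 13 and 17 (adjusted p = 0.0516, 0.0612, 0.0585 and 0.0502). H2-Aa, a class II chain that presents antigen, stood at 84.4, 269.8 and 275 TPM at day 9 and 289, 778 and 329 TPM at day 20, lowest in mouse 11 and highest in mouse 18, and was not called. Of 14 T and NK cell genes none was called by limma, 2 had an unadjusted p under 0.05, and 5 fell without mouse 18.

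Antimicrobial and acute-phase genes moved both ways, with 7 rises and 3 falls among 14. Saa3, an acute-phase protein of macrophages and stroma, was at 1579, 3189 and 5486 TPM at day 9 and 189.7, 376 and 168 TPM at day 20, with a log2 change of -3.72 (SE 0.50, adjusted p = 0.005). Saa1, a related protein that colonocytes make and that has a near-identical copy, rose from 85.6, 6.96 and 20.4 TPM to 442, 620.2 and 998 TPM (4.73, adjusted p = 0.0102). Chil3, a chitinase-like protein of myeloid cells, fell from 152, 81.5 and 169.8 TPM to 0.966, 2.95 and 7.24 TPM. Duox2, an epithelial oxidase, rose from 4.05, 2.36 and 3.90 TPM to 21.4, 25.7 and 22.0 TPM, together with its maturation factor Duoxa2, from 12.5, 17.3 and 16.5 TPM to 46.6, 69.0 and 32.7 TPM. Both Duox genes were higher at day 14 than at day 20 by their means, with Duox2 at 40.9, 31.4 and 30.9 TPM. The count of rises was 3, 4, 3 and 4 without mice 12, 13, 17 and 19.

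Plasma cell transcripts rose. Of 10 tested B and plasma cell genes 6 rose and none fell, and 1 fell without mouse 19. The list held 18 genes. One near 0 at day 9 was tested only if it was high at day 20, and could only rise. Without the filter on low values 6 of 18 rose and none fell. The sum over the list was 458 to 522 TPM at day 9 and 1833 to 7046 TPM at day 20. Igha, the IgA heavy chain of secreted gut antibody, was at 11.6, 5.39 and 8.54 TPM at day 9 and 1081, 952 and 284 TPM at day 20, with a log2 change of 6.18 (SE 0.53, adjusted p = 0.00208). Jchain, which joins IgA molecules, rose from 2.66, 1.41 and 2.23 TPM to 606, 357 and 93.8 TPM. Mouse 19 had the lowest day-20 value of both genes, still above every day-9 value. Mzb1, a chaperone of antibody-secreting cells, rose from 0.347, 0.351 and 0.238 TPM to 12.0, 15.3 and 3.03 TPM, without overlap. Immunoglobulin genes share near-identical segments, so their levels are uncertain.

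Other cell types and states were measured by short lists. Of 13 genes of injury-associated epithelium 12 were not called, among them Anxa1, annexin A1, at 10887, 13258 and 9119 TPM at day 9 and 12477, 20226 and 6798 TPM at day 20. The member that fell was Msln, mesothelin, from 16.7, 6.28 and 7.58 TPM to 0.306, 0 and 0.376 TPM. Without mouse 18, 4 members fell. Of 5 tested tuft cell genes 2 fell and none rose, with a median of -1.11, and the sum over the list was 44.7 to 79.3 TPM at day 9 and 17.1 to 30.7 TPM at day 20. Dclk1, a kinase of tuft cells and nerves, fell by 1.11. The count of falls was 1 without mouse 11, 12, 13 or 17, with TMM factors or without the filter on low values, and 3 without mouse 18. Egln3, an oxygen-sensing hydroxylase, rose from 13.4, 24.8 and 24.6 TPM to 87.7, 80.8 and 86.5 TPM, with 2 rises and 1 fall among 17 genes of protein folding, glycolysis and hypoxia. With TMM factors none of the 17 fell. Smooth muscle genes gave 1 rise among 10, Cnn1, calponin, by 1.34, but 6 rises without mouse 18. The call of Cnn1 was lost without mice 11, 12, 13, 17 and 19 (adjusted p = 0.0651, 0.138, 0.133, 0.136 and 0.101). Cnn1 was also not called without the filter on low values (adjusted p = 0.0897). Endothelial genes gave 1 rise and 1 fall among 11, Prox1, a lymphatic transcription factor, by 0.67, and Emcn, endomucin, by -1.18. The call of Prox1 was lost without mice 11, 12 and 13 (adjusted p = 0.0893, 0.0712 and 0.102). The call of Emcn was lost without mice 11, 12, 13 and 17 (adjusted p = 0.0768, 0.0721, 0.0795 and 0.0768). Emcn was not called without the filter either (adjusted p = 0.0503). Skeletal muscle markers summed to 10.8 to 14.2 TPM at day 9 and 10.2 to 16.1 TPM at day 20.

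The 15 largest rises by the naming rule were Zg16, Cyp2c55, Sval1, Spink1, Tff3, Sycn, Aqp8, Clca1, Klk1, Lypd8, Spink4, Slc26a3, Car1, Sectm1b and Jchain. They ran from 8.07 down to 6.49. Tff3 is a goblet peptide that protects mucosa, Spink1 and Spink4 are protease inhibitors, and Cyp2c55 is a colonic cytochrome P450. By their means all 15 were higher in uninjured rectum than in uninjured anus. Lypd8, a colonic protein that binds flagella, was the most abundant, at 890.4, 8.68 and 141 TPM at day 9 and 16758, 9355 and 20794 TPM at day 20. The call of Lypd8 was lost without mice 13 and 17 (adjusted p = 0.0583 and 0.0638). Lypd8 and Klk1 belong to families of similar copies. The 15 largest falls were Stfa2, Chil3, Ccl4, Wfdc21, Ngp, Retnlg, Ccl3, Stfa1, Ifitm6, Saa3, S100a8, Klk13, Hbb-bs, Sncg and Klk10, from -5.06 to -3.43. Stfa1, Stfa2 and Hbb-bs have near-identical copies. Klk10 and Klk13, secreted proteases, fell from 167, 164 and 144 TPM to 17.1, 5.58 and 25.9 TPM and from 96.1, 167 and 129 TPM to 10.3, 4.66 and 15.0 TPM. The call of Stfa2 was lost without mice 13, 17 and 19 (adjusted p = 0.0642, 0.0614 and 0.052). The call of Ccl4 was lost without mice 12, 13, 17 and 19 (adjusted p = 0.0795, 0.0723, 0.122 and 0.108). The call of Retnlg was lost without mice 11, 13, 17 and 19 (adjusted p = 0.0708, 0.0825, 0.0795 and 0.0685). The call of Ccl3 was lost without mice 17 and 19 (adjusted p = 0.0944 and 0.0856). The call of S100a8 was lost without mice 11, 13, 17 and 19 (adjusted p = 0.0636, 0.0774, 0.0656 and 0.0608). The call of Hbb-bs was lost without mouse 13 (adjusted p = 0.0503). Without the filter on low values Ccl4, Retnlg and Ccl3 were not called (adjusted p = 0.0851, 0.0548 and 0.0685), nor was Ccl4 with a pseudocount of 0.1.

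By its means day 14 lay between days 9 and 20 for most called genes. The day-14 mean of 1104 of the 1335 higher genes (82.7%) and 1941 of the 2124 lower genes (91.4%) fell between the means of days 9 and 20. By day 14 the median gene had covered 71.4% of its rise or 65.4% of its fall. Genes were chosen here for differing between the outer days, which favours such an order. All 28 cell cycle genes, all 20 collagen and fibroblast genes and all 20 colonocyte genes that were called lay between. The day-14 mean of colonocyte genes joins unlike mice, with list sums of 33617, 5386 and 8449 TPM in mice 14, 15 and 16. Mouse 14 was within the day-20 range of 16383 to 34163 TPM, and mice 15 and 16 were below it. Of the 5 called mucosal suprabasal genes 4 passed the day-20 mean by day 14, and so did 5 of the 8 called cornification genes. Cnfn and Krt4, given above, are among them.

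The same interval was measured in the anus and rectum of the same mice, to ask which changes differed from those in the neighbouring tissues. The neo-epithelium samples are shared by both comparisons. Against the anus, the change differed for 398 of 14468 genes (2.75%), higher for 184 (1.27%) and lower for 214 (1.48%). With the mouse as a block the count was 699. Leaving out mice 11, 12, 13, 17, 18 and 19, without the block, gave 22, 21, 79, 56, 610 and 40. Within the anus itself 288 of 13376 genes (2.15%) differed between the days. Mmp13 differed in opposite directions, with changes of -2.24 in neo-epithelium and 2.09 in the anus and a difference of -4.33 (SE 0.56, adjusted p = 0.00963). Its anus means were low, 0.283 TPM at day 9 and 4.96 TPM at day 20, against 9.58 TPM in day-20 neo-epithelium. Krt4 fell by 1.97 in neo-epithelium, and the difference from the anus was -2.18 (SE 0.34, adjusted p = 0.016). For Col1a1 the difference was -1.90 (SE 0.43, adjusted p = 0.045), with a change of -0.23 within the anus. Fcgbp, a goblet mucus protein, had changes of 6.20 in neo-epithelium and 0.70 in the anus. Eno3, the muscle enolase, had the largest difference by the naming rule, 6.00 (SE 0.54, adjusted p = 0.0012), and fell in the anus (-1.41, adjusted p = 0.042) while rising in neo-epithelium. Skeletal muscle genes summed to 9631 to 10947 TPM in anus at day 9 and 3395 to 5473 TPM at day 20, against 10.2 to 16.1 TPM in day-20 neo-epithelium, and their part in these differences was not tested. For Mmp13 the call was lost without mouse 12 (adjusted p = 0.0692). For Fcgbp the call was lost without mice 12, 13 and 19 (adjusted p = 0.115, 0.0701 and 0.0776). For Krt4 the call was lost without mice 11, 12 and 19 (adjusted p = 0.0798, 0.0971 and 0.0527). For Col1a1 the call was lost without mice 11, 12, 13, 17, 18 and 19 (adjusted p = 0.0806, 0.144, 0.0824, 0.115, 0.0697 and 0.0917).

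Against the rectum, the change differed for 243 of 14169 genes (1.72%), higher for 220 (1.55%) and lower for 23 (0.162%). The count was 94, 16, 34 and 90 without mice 12, 13, 17 and 19. Within the rectum 2718 of 13097 genes (20.8%) differed between the days. Some lists with falls in neo-epithelium were also lower at day 20 in rectum by their sums. The wound protease and matrix list stood there at 920 to 1270 TPM at day 9 and 167 to 349 TPM at day 20. Neutrophil genes stood at 14315 to 16461 TPM and 527 to 1589 TPM. Sums of collagen and fibroblast genes overlapped (1224 to 2399 and 633 to 1953 TPM). Those of B and plasma cell genes overlapped too (601 to 915 and 743 to 12198 TPM). Zg16 had changes of 8.07 in neo-epithelium and -0.29 in the rectum, a difference of 8.36 (SE 0.98, adjusted p = 0.00248), and Clca1, a secreted goblet protease, changes of 7.36 in neo-epithelium and 0.86 in the rectum. At day 9 the rectum already held means of 7396 TPM of Zg16 and 1043 TPM of Clca1, against 14.9 and 3.96 TPM in neo-epithelium. Saa1 had changes of 4.73 in neo-epithelium and -1.93 in the rectum. Among the genes with a lower change, Aldh3b2, an aldehyde dehydrogenase, had changes of -0.66 in neo-epithelium and 2.39 in the rectum, a difference of -3.05 (SE 0.24, adjusted p = 0.00086). Within neo-epithelium alone the fall of Aldh3b2 was not called without mice 11, 12, 13 and 17 (adjusted p = 0.0631, 0.0749, 0.0556 and 0.0532) or with all 9 neo-epithelium samples in the fit, whereas its difference from the rectum was called without each mouse. Klk13 had changes of -3.67 in neo-epithelium and -0.40 in the rectum. Its rectum mean was 0.331 TPM at day 9 and 0 TPM at day 20, so it had almost no level to lose there. For Zg16 the call was lost without mouse 13 (adjusted p = 0.0529). For Saa1 the call was lost without mice 13 and 17 (adjusted p = 0.076 and 0.0571). For Klk13 the call was lost without mice 12, 13 and 17 (adjusted p = 0.053, 0.076 and 0.0636).

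**Figure D4:**
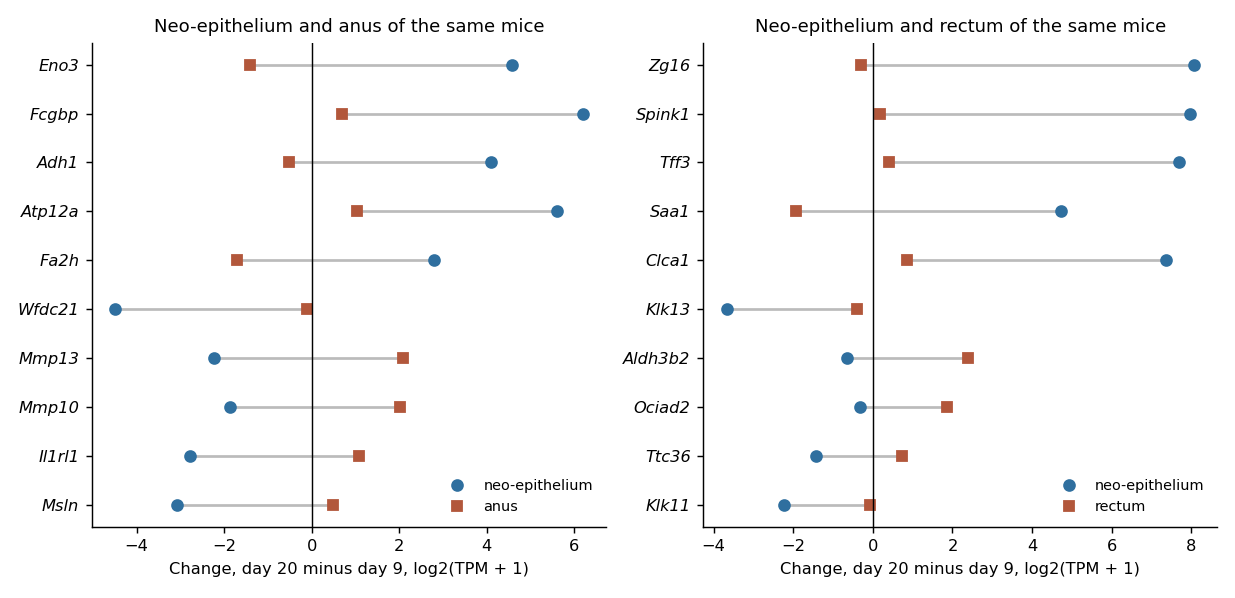
Change from day 9 to day 20 (x axis, difference of mean log2(TPM + 1), 3 mice per day) of the 5 genes with the largest higher and lower difference, in neo-epithelium (circles) and in the anus (left, squares) or rectum (right, squares) of the same mice. Zg16 moves by 8.07 in neo-epithelium and -0.29 in rectum.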

How the data were processed

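Bulk mRNA of 66 samples from 19 mice was deposited as transcript abundances in TPM. Per the submitters' processing notes, CASAVA, kallisto and the mm10 build were used, with no roles or versions stated. The deposited TPM values are estimates scaled by the authors to a fixed total per sample, so they are not counts and depth is unknown. Of 126860 rows, 37344 held no values and 1318 repeated another. The 88198 remaining transcripts were summed into 30452 genes, leaving out 1284 with no gene. Genes with at least 1 TPM in 3 samples were tested on log2(TPM + 1) with limma 3.58.1 (R 4.3.3, empirical Bayes with trend, two-sided, Benjamini-Hochberg over all genes tested). Days were compared in the 6 samples. The change was also set against that in anus or rectum as an interaction. Tests were checked on simulated data.

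Neo-epithelium, anus and rectum came from the same mice by the labels, which pairs the samples. Deviations from the group means correlated at -0.034 to 0.446 within mice for the anus and 0.04 to 0.505 for the rectum. A fit with the mouse as a replicate block was an alternative, beside other pseudocounts, filters, TMM factors, samples in the fit, a 2-fold minimum and leaving out each mouse. Genes named were members of 39 lists, the 15 largest rises and falls, and the 5 largest differences each way from anus and rectum. The last 2 kinds needed separate days and 8 TPM or more as the mean of the higher group. Members and lists were chosen with earlier results of these data known. Promoter windows are RefSeq sequences of GRCm38.p6.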

Additional observations from a re-analysis of the deposited data

Results flagged for a closer look

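The change from day 9 to day 20 differed between neo-epithelium and the neighbouring tissue of the same mice for 398 genes against the anus and 243 genes against the rectum, by the interaction term of the limma fit.

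Genes with the largest higher change against the anus were Eno3 (6.00), Fcgbp (5.50), Adh1, an alcohol dehydrogenase (4.62), Atp12a (4.57) and Fa2h, a fatty acid hydroxylase (4.50), each value being the difference of log2 changes. Adh1 had changes of 4.09 in neo-epithelium and -0.53 in the anus, and Fa2h of 2.80 in neo-epithelium and -1.70 in the anus. The largest lower changes were those of Wfdc21 (-4.39), Mmp13 (-4.33), Mmp10, a stromelysin (-3.87), Il1rl1, the receptor for interleukin 33 (-3.86), and Msln (-3.58). Mmp10 had changes of -1.86 in neo-epithelium and 2.01 in the anus, and Il1rl1 of -2.78 in neo-epithelium and 1.08 in the anus, so both moved in opposite directions by their means. Anus levels were low, with means of 0.555 and 6.23 TPM of Mmp10 and 1.16 and 3.62 TPM of Il1rl1 at days 9 and 20. Day-20 neo-epithelium was still higher, at 19.0 and 8.13 TPM. Each of the 10 was also called with TMM factors and with the mouse as a block. Calls lost without a mouse, with the highest adjusted p this gave, were Fcgbp (mice 12, 13 and 19, 0.115), Adh1 (mice 12, 13, 17 and 19, 0.0911), Atp12a (mice 12 and 19, 0.0794), Fa2h (mice 11, 12, 13, 17 and 19, 0.0991), Wfdc21 (mice 11, 12, 13, 17 and 19, 0.14), Mmp13 (mouse 12, 0.0692), Mmp10 (mice 11, 12, 13, 17, 18 and 19, 0.161), Il1rl1 (mice 11, 12, 13, 17, 18 and 19, 0.161) and Msln (mice 11, 12, 13, 17 and 19, 0.113). Eno3 kept its call without each mouse.

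Against the rectum, the largest higher changes were those of Zg16 (8.36), Spink1 (7.78), Tff3 (7.29), Saa1 (6.66) and Clca1 (6.50). Spink1 had changes of 7.96 in neo-epithelium and 0.18 in the rectum, and Tff3 of 7.69 in neo-epithelium and 0.40 in the rectum. Their means in day-9 rectum were already 1355 and 2007 TPM, against 2.51 and 8.99 TPM in day-9 neo-epithelium. The largest lower changes were those of Klk13 (-3.28), Aldh3b2 (-3.05), Ociad2, an endosomal protein (-2.20), Ttc36 (-2.17) and Klk11, a secreted protease (-2.16). Klk11 had changes of -2.24 in neo-epithelium and -0.07 in the rectum, and Ttc36 of -1.43 in neo-epithelium and 0.74 in the rectum. Both were low in rectum, with means of 0.153 and 0.466 TPM at day 9 and 0.0897 and 1.42 TPM at day 20. Each of these 10 was called with TMM factors and with the block too. Calls lost without a mouse were Zg16 (mouse 13, 0.0529), Tff3 (mice 13, 17 and 19, 0.0904), Saa1 (mice 13 and 17, 0.076), Klk13 (mice 12, 13 and 17, 0.076), Ociad2 (mice 12, 13, 17 and 19, 0.172), Ttc36 (mice 12, 13, 17 and 19, 0.136) and Klk11 (mouse 13, 0.0865), whereas Spink1, Clca1 and Aldh3b2 kept theirs.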

How the results depend on the processing

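Of 111 named genes called between the days, 94 kept their call in each of the 8 scaling, filter and model settings in which they were tested, 75 kept it without each mouse in turn where tested, and none changed sign. With at least a 2-fold change 1867 genes were called, and leaving out each mouse gave 1150 to 3716. Leaving out 1 mouse leaves 2 in its group, so fewer samples are tested. Against the anus, the replicate block gave 699 genes, TMM factors 598 (332 higher, 266 lower), no filter on low values 236 and leaving out each mouse 21 to 610. Against the rectum, no filter gave 150 and leaving out each mouse 16 to 269. The cause of the changes with block, scaling and filter was not tested, beyond the larger number of genes tested without a filter. Every gene named for the size of its difference between tissues kept its call with the mouse as a block. Genes not called that changed sign when 1 mouse was left out were Anxa1 (-0.25 to 0.54), Il1rn (-0.29 to 0.73), Isg15 (-1.69 to 0.56) and Tmprss11b (-0.0367 to 0.62), as log2 changes. With 3 mice per day and no read depth, the precision of low genes is unknown.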
